A study of Mus musculus with 6 samples.

Results

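Purinergic genes were read in bulk RNA of sorted microglia (the macrophages that live in brain tissue) from mice given an antibody against the human inhibitory receptor LILRB4 or a control antibody. The members were chosen by symbol in the deposited count table: 10 genes of 55493, comprising 7 receptors for extracellular nucleotides or adenosine, the related lipid receptor Gpr34 and 2 nucleotide-degrading enzymes. All 10 were found, and all 10 passed the filter on low counts that left 18210 genes tested.

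Every mouse was male, carried the transgene labelled ILT Telo Tg together with 5XFAD, an amyloid model of Alzheimer disease, and was 4 months old at the start. The treated group received an Fc-mutant anti-ILT3 mAb (clone ZM3.1; ILT3 is another name of LILRB4) and the control group an Fc-mutant Ctrl mAb (clone 27D6, labelled Ctrl IgG2a), each at 60 mg/kg intraperitoneally, weekly for 8 weeks. Microglia were sorted from brain as CD45-low CD11b-positive cells, with 3 libraries per group. Nothing in the labels says whether a library is 1 animal or a pool, so each p-value reflects only the spread among the 6 libraries, which may be technical. In bulk RNA from sorted cells, fewer cells of a type and less RNA per cell cannot be told apart.

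Damaged or active cells release ATP, which microglia sense through P2X channels and P2Y receptors. The ectoenzyme CD39, product of Entpd1, cuts ATP and ADP to AMP, and CD73, product of Nt5e, cuts AMP to adenosine, which acts on adenosine receptors such as A3, product of Adora3. P2ry12 encodes the ADP receptor that steers microglial processes toward injury, and it is widely used as a marker of resting microglia whose level falls in cells around amyloid plaques.

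Total counts were between 39805118 and 56345514 per library. The 11 microglial markers, P2ry12 among them, summed to between 38056 and 40316 CPM (read counts scaled by TMM library size) in controls and between 40620 and 41396 CPM with anti-LILRB4. Neutrophil markers (10 of 10 measured, 8 of them with a negative fold change) summed to 572 to 1338 CPM in controls and 135 to 1131 CPM with anti-LILRB4. Immediate early and dissociation genes (12 of 14 tested, 11 with a negative fold change) summed to 494 to 509 CPM in controls and 396 to 414 CPM with anti-LILRB4. Mitochondrially encoded genes took 3.73 to 4.69% of counts in controls and 2.80 to 3.29% with anti-LILRB4. The part of these differences in the results on purinergic genes was not tested.

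P2ry12, P2ry13 and P2ry14 lie side by side on the minus strand of chromosome 3, inside Med12l on the opposite strand, and were read at very different levels. The 100 bases before a RefSeq start site (build GRCm38.p6) are shown for these 3 neighbours, 5′ to 3′, and for Adora3 because its window holds a match to the searched motif. Capitals mark AGGAAGT or the longer GAGGAAGT that contains it, in either orientation; both are forms of the binding motif of PU.1, the factor that specifies macrophages. The intervals are chr3:59262986-59263085 for P2ry12, chr3:59210883-59210982 for P2ry13, chr3:59153493-59153592 for the most upstream of the 4 P2ry14 starts, all on the minus strand, and chr3:105904321-105904420 on the plus strand for Adora3.
P2ry12: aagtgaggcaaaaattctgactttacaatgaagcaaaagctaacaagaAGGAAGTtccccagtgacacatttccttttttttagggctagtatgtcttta
P2ry13: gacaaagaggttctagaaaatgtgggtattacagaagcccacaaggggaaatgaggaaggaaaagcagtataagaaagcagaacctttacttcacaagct
P2ry14: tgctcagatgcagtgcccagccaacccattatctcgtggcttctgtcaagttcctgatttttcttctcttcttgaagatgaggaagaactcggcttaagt
Adora3: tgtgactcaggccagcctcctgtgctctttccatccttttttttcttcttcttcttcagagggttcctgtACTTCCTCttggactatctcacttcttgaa

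RefSeq start windows of 300 bases (250 before and 50 after the start) were given for 8 of the 10 genes, 13 windows in all. GAGGAAGT, searched on both strands, was in a window of 2 genes, Adora3 (30 bases before the start, reverse complement) and P2rx7 (4 bases into the transcript at the second of its 2 starts, reverse complement). AGGAAGT alone was also in the P2ry12 window, 52 bases before the start. Over all genes with such windows, 3.69% held GAGGAAGT and 10.7% held AGGAAGT. Counted by window, GAGGAAGT was in 2 of these 13 and in 3.2% of all windows. AGGAAGT was in 3 of these 13 and in 9.35% of all windows. A match describes the letters only.

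At an adjusted p of 0.05 (edgeR quasi-likelihood test, Benjamini-Hochberg over 18210 genes) 0 of the 10 genes were called, and 0% of all genes were. At an unadjusted p under 0.05, 3 of the 10 differed, P2ry13 higher and P2ry14 and Adora3 lower, beside 4.12% of all genes higher and 3.91% lower (8.03% in either direction). DESeq2 on the same genes also called 0 of the 10, beside 0.928% of all genes. All 3 treated libraries lay above all 3 controls in P2ry13 and Entpd1 and below them in Adora3, beside 6.94% of all genes above, 7.79% below and 14.7% in either direction. The median log2 fold change (treated minus control) was -0.08 over the 10 genes, 4 positive and 6 negative, and -0.01 over all genes tested. In the authors' deposited table, the 9 genes read there had log2 fold changes from -2.02 (P2ry14) to 0.25 (Entpd1) and adjusted p from 0.253 to 0.977. Adora3 was not among these 9.

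**Figure D1:**
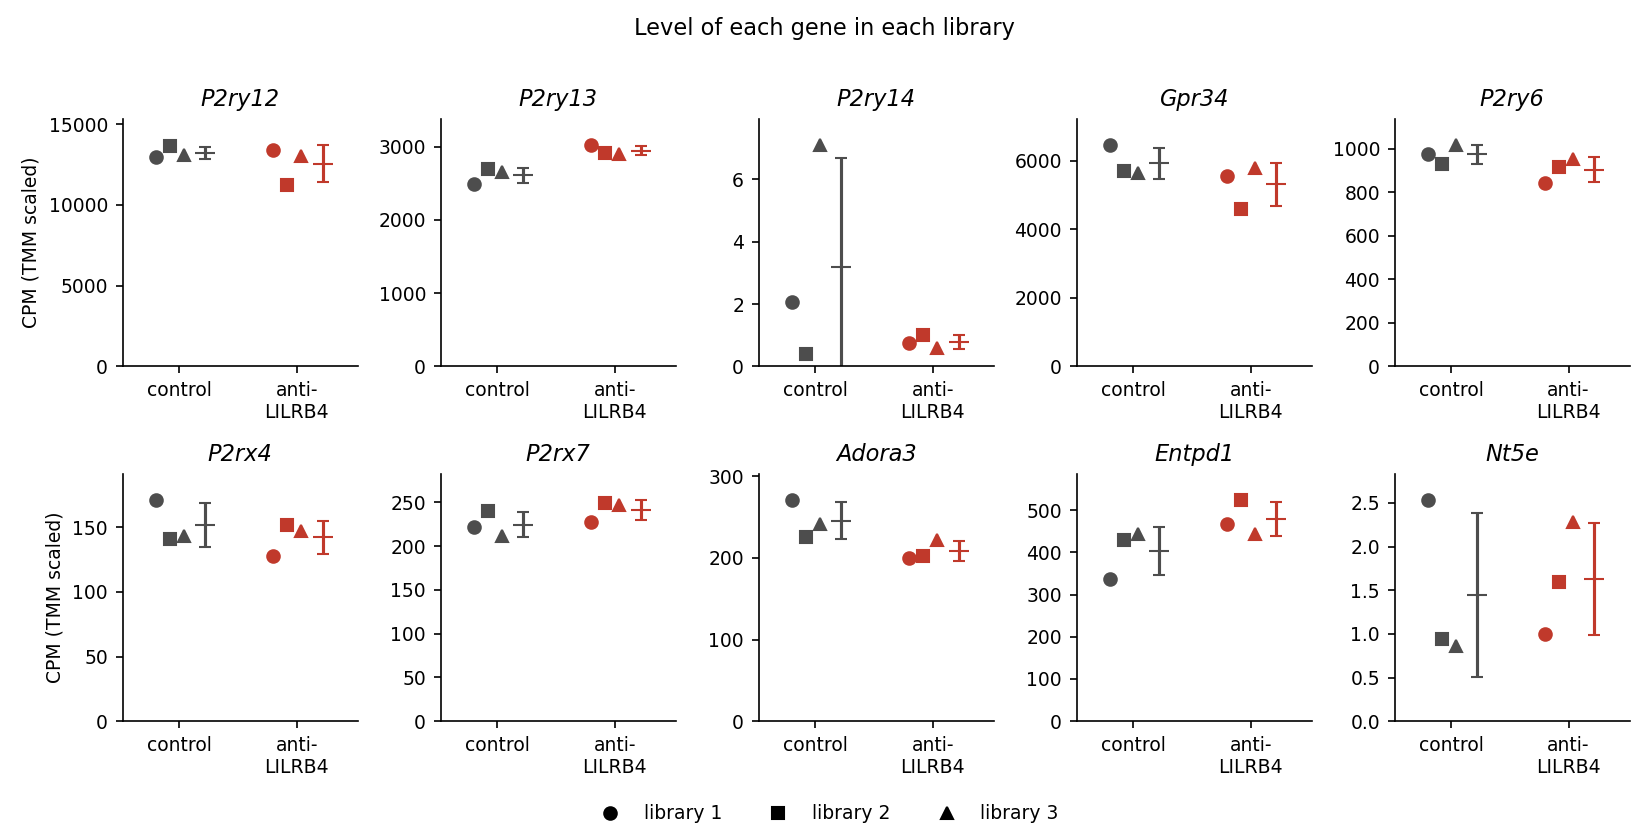
Level of each of the 10 genes in CPM on a linear axis from 0, with 1 point per library (circle, square and triangle for libraries 1, 2 and 3) in control (grey) and anti-LILRB4 (red) groups, and mean ± SD (n = 3) beside them, the SD bar ending at 0 for P2ry14 controls. The groups are separate in P2ry13 (2497 to 2693 against 2903 to 3020 CPM), and 1 control library stands apart in P2ry14.

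Levels of different genes were compared per kilobase of exon. P2ry12 came out highest, at 5062 ± 332 CPM per kb (mean ± SD over 6 libraries), which placed it at rank 3 of protein-coding genes, and Gpr34 followed at 2691 ± 285, rank 12. P2ry13 stood at 1099 ± 78.4 CPM per kb and P2ry6 at 325 ± 20.3. Entpd1 (79.0 ± 10.9) and Adora3 (60.9 ± 7.09) overlapped over the 6 libraries and were not separated beyond their spread. P2rx7 (39.0 ± 2.47) and P2rx4 (20.9 ± 2.03) came next, each with a range apart from its neighbours at this measure of length. P2ry14 and Nt5e, at 0.180 ± 0.233 and 0.179 ± 0.0846 CPM per kb, overlapped, and P2ry14 lay 116-fold below P2rx4. Without control library 3, the P2ry14 mean was 0.0873 CPM per kb, 241-fold below P2rx4 and below Nt5e (0.194). The 10 genes took 2.11 to 2.44% of all counts in a library, and P2ry12, Gpr34 and P2ry13 made up 90.2 to 92.2% of that. Most reads of these genes thus came from both ADP receptors and the lysophosphatidylserine receptor, and the transcript of adenosine-producing CD73 was scarce. With the longest transcript as length, levels moved most for P2rx4 (37.8), Adora3 (95.8), P2ry6 (482) and Nt5e (0.384 CPM per kb). The order changed in the last pair, where Nt5e stood above P2ry14 (0.255). The ranges of P2rx7 (mean 47.2 CPM per kb) and P2rx4 overlapped with that length.

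**Figure D2:**
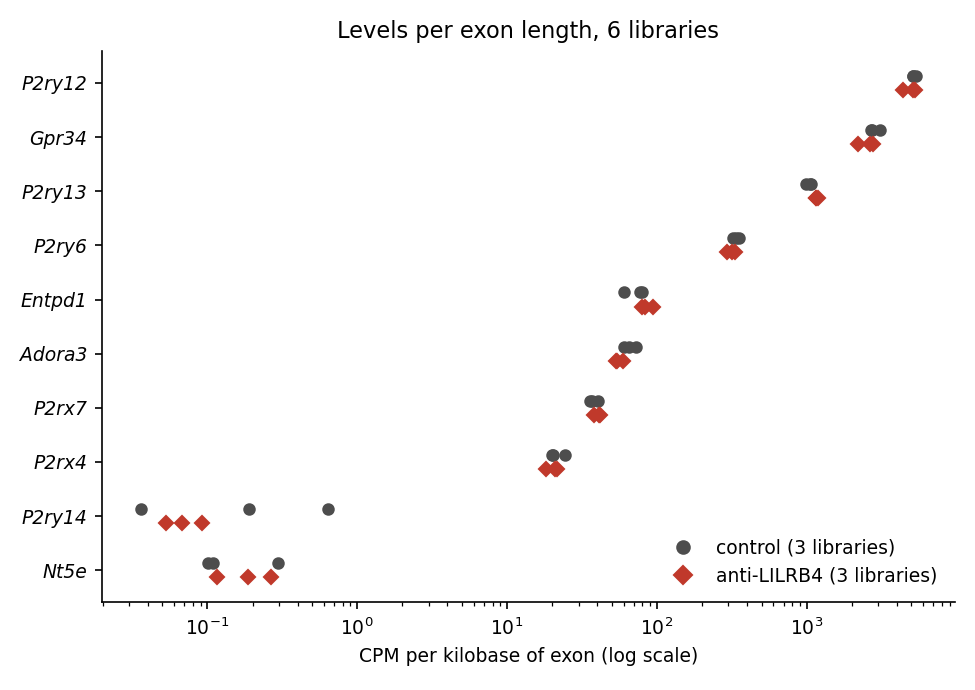
CPM per kilobase of exon on a log axis for each gene in each of the 6 libraries (grey circles, control; red diamonds, anti-LILRB4), ordered by the mean. The first 4 genes and P2rx7 and P2rx4 occupy ranges of their own, while Entpd1 overlaps Adora3 and P2ry14 overlaps Nt5e.

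Library values are in the order 1, 2 and 3 within each group. Among the ADP receptors, P2ry12 (ENSMUSG00000036353, GRCm38 chromosome 3, 59216272 to 59262871) was read at 12949, 13653 and 13068 CPM in controls, against 13401, 11255 and 12996 CPM with anti-LILRB4. The groups overlapped, and anti-LILRB4 library 2 was the lowest of the 6. In log2 terms it differed by -0.08 (standard error 0.07, edgeR adjusted p 0.827). As a change from the control level, its 95% interval ran from -15.1 to 6.13%, and without anti-LILRB4 library 2 the log2 fold change was 0.01. Of the exon bases of P2ry12, 9 (0.353%) are shared with Med12l, whose level was 156 ± 10.6 CPM in controls and 153 ± 1.41 with anti-LILRB4 (SD, n = 3).

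P2ry13 (ENSMUSG00000036362, chromosome 3, 59207892 to 59210882), a second Gi-coupled ADP receptor, was at 2497, 2693 and 2648 CPM in controls, against 3020, 2915 and 2903 CPM with anti-LILRB4. Every treated library lay above every control, and did so under all 4 library scalings tried. In log2 terms it differed by 0.17 (standard error 0.07), an increase of 12.8% with a 95% interval from 1.29 to 25.5% (edgeR unadjusted p 0.0318, adjusted p 0.573). With any 1 library left out the log2 fold change stayed between 0.14 and 0.20. Over the alternatives run, the P2ry13 unadjusted p ran from 0.0172 (limma-voom) to 0.106 (edgeR with no low-count filter). It was 0.0514 by DESeq2 and 0.0838 by edgeR with upper quartile scaling.

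The ratio of both ADP receptors within a library does not depend on how libraries are scaled. P2ry13 gave 19.3, 19.7 and 20.3 reads per 100 P2ry12 reads in controls, against 22.5, 25.9 and 22.3 with anti-LILRB4. The treated values were all higher, at 23.6 ± 2.0 against 19.8 ± 0.492 (SD, n = 3; two-sided exact permutation p = 0.1, the smallest that 3 against 3 allows; adjusted p 0.45 over 9 ratios). Entpd1 was the other of the 9 ratios whose groups did not overlap, at 3.05 ± 0.402 in controls and 3.85 ± 0.694 reads per 100 P2ry12 reads with anti-LILRB4 (exact permutation p = 0.1, adjusted p 0.45). Gpr34, by contrast, was read at 44.9 ± 4.31 and 42.3 ± 1.98 per 100 P2ry12 reads, with overlapping groups (exact permutation p = 0.5, adjusted p 0.75). The remaining 6 ratios overlapped too, with exact permutation p from 0.3 to 1. Over all 18209 other tested genes, the ratio to P2ry12 lay above all controls in 9.12%, below them in 4.38% and did not overlap in 13.5%. P2ry12 itself was lowest in anti-LILRB4 library 2, which raises every ratio in that library. These ratios were computed after the levels had been seen.

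**Figure D3:**
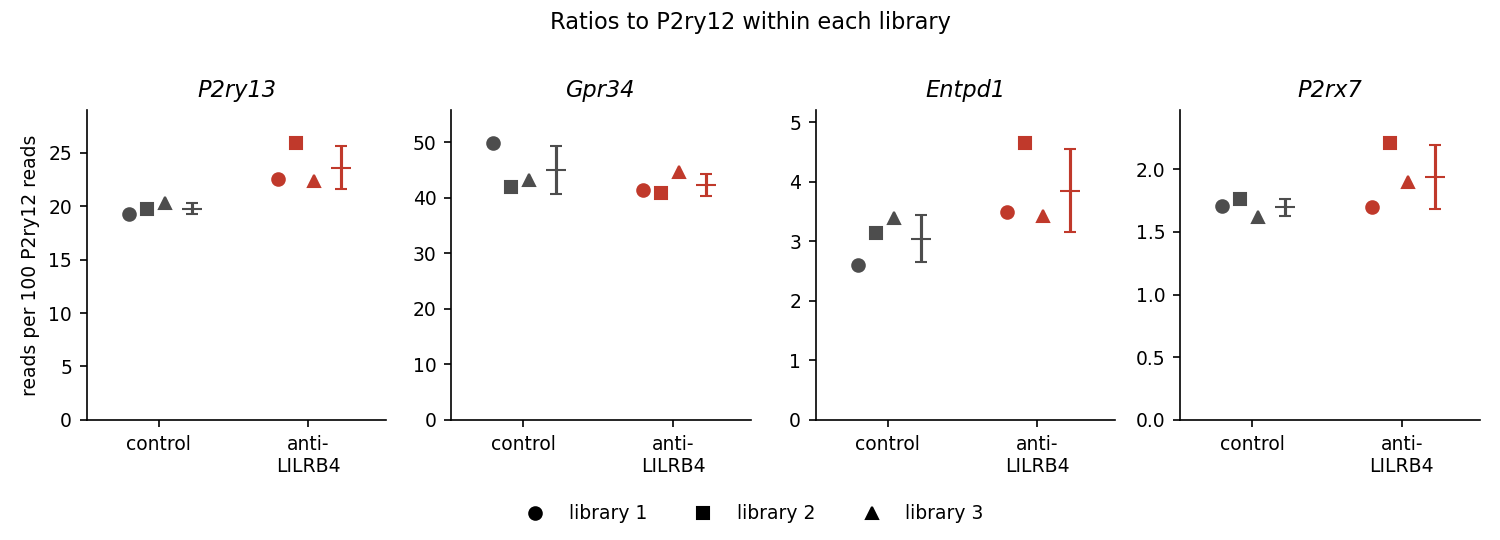
Reads of P2ry13, Gpr34, Entpd1 and P2rx7 per 100 reads of P2ry12 in the same library (linear axis from 0; circle, square and triangle for libraries 1, 2 and 3; mean ± SD beside the points, n = 3). The treated libraries (red) lie above all controls (grey) for P2ry13 and Entpd1, and anti-LILRB4 library 2 is the highest for P2ry13, Entpd1 and P2rx7.

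Gpr34 (ENSMUSG00000040229, chromosome X, 13632089 to 13640858, plus strand) encodes a receptor of the P2Y12-like family that responds to lysophosphatidylserine, a lipid of dying cells. It was at 6457, 5714 and 5633 CPM in controls, against 5546, 4606 and 5792 CPM with anti-LILRB4. As with P2ry12, anti-LILRB4 library 2 was lowest and the groups overlapped. Its log2 fold change was -0.16 (standard error 0.10, edgeR adjusted p 0.716), and it was -0.06 without that library and -0.09 without control library 1. Gpr34 lies in an intron of Cask, which was at 92.4 ± 12.9 CPM in controls and 90.8 ± 3.65 with anti-LILRB4, with no exon base shared.

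P2ry14 (ENSMUSG00000036381, chromosome 3, 59113855 to 59153618), the UDP-glucose receptor, had the fold change farthest from 0 and, in control library 2, the lowest single count of the 10 genes. Its counts were 92, 16 and 312 in controls, against 34, 58 and 24 with anti-LILRB4, or 2.08, 0.397 and 7.10 against 0.754, 1.02 and 0.583 CPM. Control library 3 was 3.41 times the next highest, and control library 2 was the lowest of all 6. In log2 terms it differed by -2.02 (standard error 0.81, edgeR unadjusted p 0.0318, adjusted p 0.573), and without control library 3 it was -0.66 (adjusted p 0.895); limma-voom gave -1.24 (adjusted p 0.716). Only in edgeR with no filter on low counts was the gene called (adjusted p 0.0239), where 0.847% of 35404 genes were called; over the other alternatives run, its adjusted p lay at 0.232 or above. Gpr171, a receptor gene of the same locus, also had its highest count in control library 3, at 106 against 4 to 35 in the other libraries. Control library 3 was at least 3 times the next highest and at 1 CPM or more in 18 of 18210 genes (0.0988%), and other libraries in 5 to 31 genes. Its summed markers of T, NK and B cells (98.8 CPM), monocytes (50.5) and neutrophils (611) lay within the range of the other libraries (48.7 to 143, 27.3 to 91.3 and 135 to 1338 CPM). In that library the first sum came mostly from the B cell genes Cd79b (61.7 CPM), Cd79a (18.5) and Ms4a1 (18.2). Cd3d was at 0.387 and Cd3e at 0.0228 CPM, so the sum hardly reads T or NK cells. The part of other cells in the P2ry14 and Gpr171 counts was not tested.

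**Figure D4:**
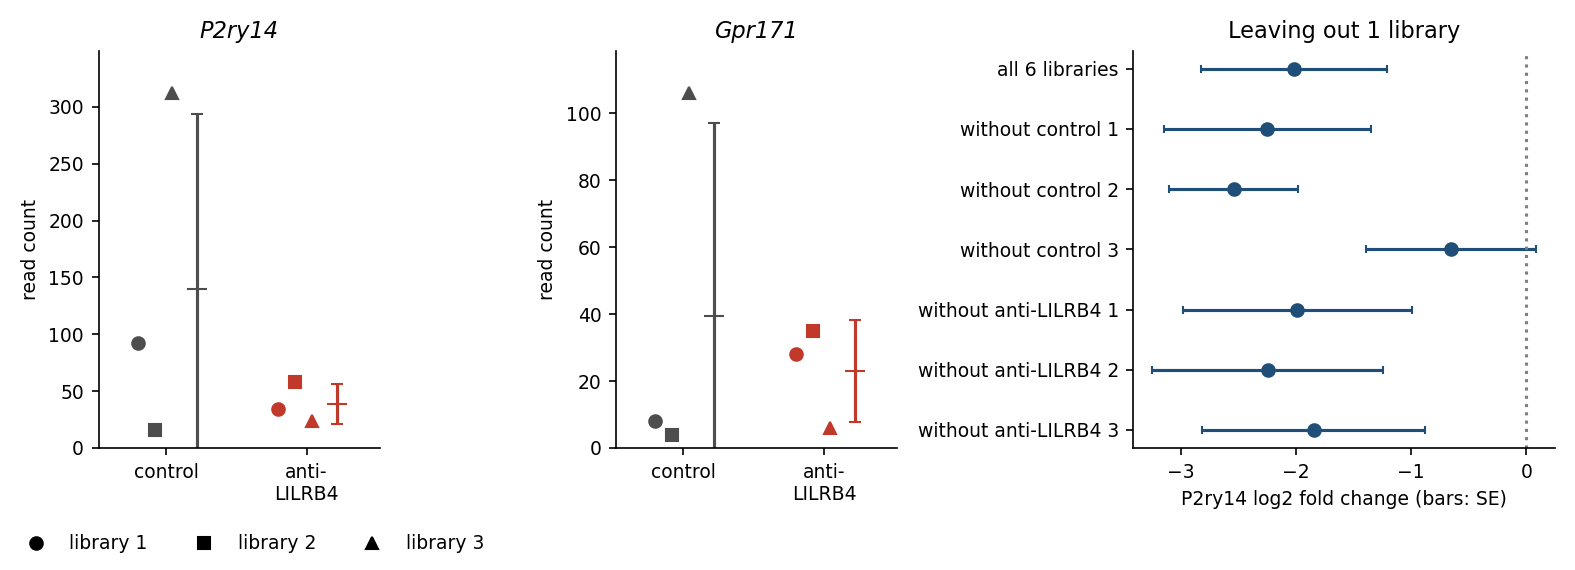
Read counts of P2ry14 and of its neighbour Gpr171 in each library (linear axes from 0, mean ± SD with n = 3 beside the points, control SD bars ending at 0), and the P2ry14 log2 fold change with its standard error in all 6 libraries and with 1 library left out. Control library 3 (grey triangle) is highest in both genes, and without it the fold change moves from -2.02 to -0.66.

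P2ry6 (ENSMUSG00000048779, chromosome 7, 100937630 to 100974649, minus strand), the Gq-coupled UDP receptor known for triggering phagocytosis in microglia, was at 974, 931 and 1015 CPM in controls. With anti-LILRB4 it was at 842, 916 and 954 CPM. The highest treated library lay above the lowest control, and the log2 fold change came to -0.11 (standard error 0.09, edgeR adjusted p 0.795), or -0.06 without anti-LILRB4 library 1. Scaled by library size alone the P2ry6 groups did not overlap, with treated libraries up to 937 CPM and controls from 945 CPM. With that scaling 14.6% of all genes tested did not overlap, and the P2ry6 groups overlapped under each other scaling tried.

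The ATP-gated channels lie next to each other on the plus strand of chromosome 5, P2rx7 (ENSMUSG00000029468) at 122643911 to 122691432 and P2rx4 (ENSMUSG00000029470) at 122707544 to 122729738. P2rx7, which at high ATP opens a large conductance and leads to NLRP3 inflammasome activation, was at 221, 240 and 212 CPM in controls, against 228, 249 and 247 with anti-LILRB4. P2rx4, a channel that responds at lower ATP, was at 171, 141 and 143 CPM in controls, against 128, 152 and 147 CPM with anti-LILRB4. Groups overlapped in both channel genes. The log2 difference was 0.10 in P2rx7 (standard error 0.10, edgeR adjusted p 0.828) and -0.09 in P2rx4 (standard error 0.12, adjusted p 0.880). The 95% intervals allow -7.90 to 25.3% for P2rx7 and -22.2 to 13.2% for P2rx4, and without control library 1 the P2rx4 log2 fold change was 0.00. That of P2rx7 was 0.06 without control library 3 and 0.16 without control library 2.

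Entpd1 (ENSMUSG00000048120, chromosome 19, 40612366 to 40741602, plus strand), encoding CD39, was at 338, 429 and 444 CPM in controls, against 467, 524 and 445 with anti-LILRB4. The lowest treated library exceeded the highest control only narrowly, at 444.6 against 443.5 CPM, and the groups overlapped when libraries were scaled by total count or upper quartile. Its log2 fold change was 0.25 (standard error 0.12, edgeR adjusted p 0.650), with a 95% interval from -1.85 to 43.4%. Control library 1 was the lowest, and without it the log2 fold change was 0.13. CD39 is also made by endothelial cells: 4 of 6 endothelial and platelet markers were tested, all 4 with a positive fold change, and they summed to 26.8 to 37.5 CPM in controls and 43.4 to 47.8 CPM with treatment, mostly from Pecam1 and Gp9. Cldn5 and Ppbp, which define those cells, were at most 0.133 CPM in any library; the part of these markers in the Entpd1 levels was not tested.

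Nt5e (ENSMUSG00000032420, chromosome 9, 88327197 to 88372092, plus strand), encoding CD73, had 112, 38 and 38 reads in controls, against 45, 91 and 94 reads with anti-LILRB4. Its levels were 0.865 to 2.53 CPM in controls and 0.997 to 2.28 CPM with anti-LILRB4, and the groups overlapped. The log2 fold change was 0.17 (standard error 0.54, edgeR adjusted p 0.963), and it turned negative without anti-LILRB4 library 3 (-0.16), control library 2 (-0.06) or control library 3 (-0.10), and was 0.84 without control library 1. At 38 reads counting error alone is 16.2%, and the 95% interval of the difference ran from -51.3 to 158.5%, while the coefficient of variation between libraries was 65.1% in controls and 39.6% with anti-LILRB4.

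Adora3 (ENSMUSG00000000562, chromosome 3, 105870858 to 105908926, plus strand), the Gi-coupled A3 adenosine receptor, was at 271, 226 and 241 CPM in controls, against 200, 202 and 222 CPM with anti-LILRB4. All treated libraries lay below all controls under the 4 scalings tried; with TMM the nearest pair was 222.4 against 225.8 CPM. As a ratio to P2ry12 reads in the same library, however, the groups overlapped (exact permutation p = 0.4, adjusted p 0.72 over 9 ratios). In log2 terms Adora3 differed by -0.24 (standard error 0.11), a change of -15.4% with a 95% interval of -28.3 to -0.06% (edgeR unadjusted p 0.0493, adjusted p 0.620). With any 1 library left out its log2 fold change stayed between -0.29 and -0.17, the latter without control library 1. Over the alternatives run, its unadjusted p ran from 0.0345 (edgeR, protein-coding genes only) to 0.140 (edgeR, without control library 1). Of its exon bases in GENCODE M21, 779 (20.9%) are shared with Tmigd3 on the same strand, so the split of reads between them is uncertain. That Tmigd3 entry was at 3.04 ± 0.961 CPM in controls and 3.35 ± 0.490 with anti-LILRB4. Another entry of the same symbol (ENSMUSG00000118531) had 0 reads in every library. Among the other adenosine receptor genes, Adora1 was at 1.75 ± 1.34 CPM in controls and 2.10 ± 1.44 with anti-LILRB4 (SD, n = 3), and Adora2a and Adora2b did not pass the filter on low counts.

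**Figure D5:**
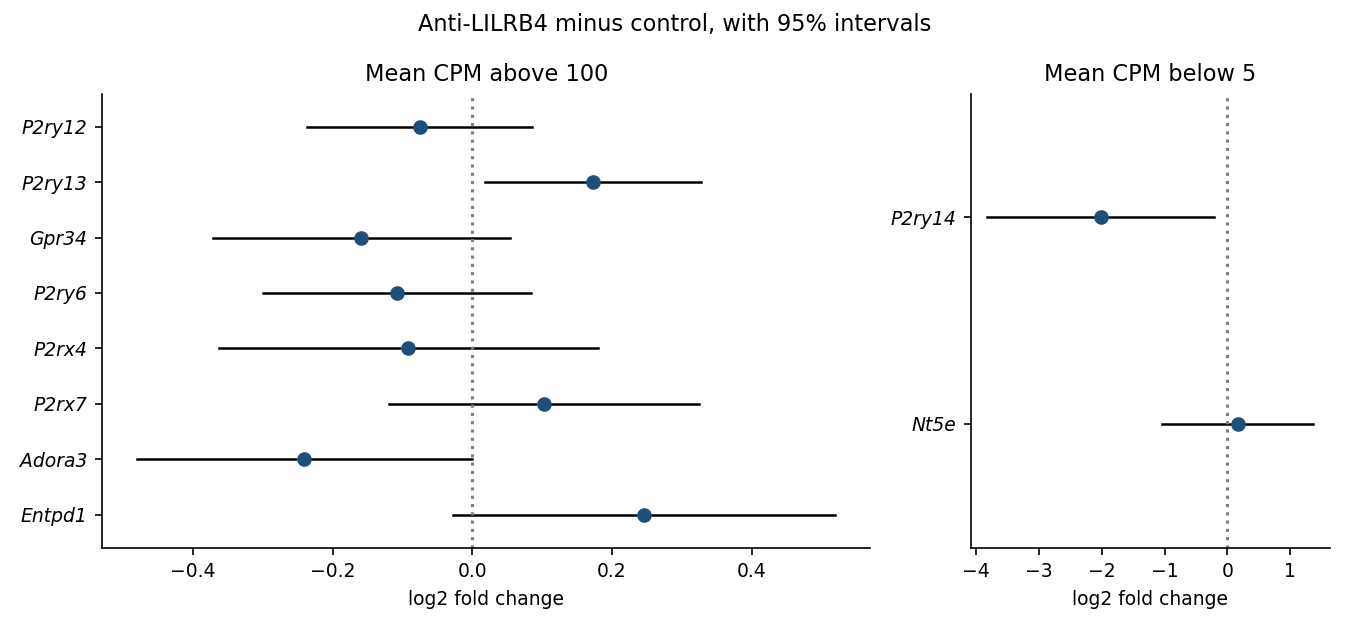
Log2 fold change (anti-LILRB4 minus control) of each gene with its 95% interval from the edgeR fit, on separate axes for the 8 genes with a mean above 100 CPM and the 2 below 5 CPM. Intervals of the 8 abundant genes lie between -0.48 and 0.52, while those of P2ry14 and Nt5e reach -3.82 and 1.37; intervals are not adjusted for the number of genes.

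The wider purinergic pathway was read from 9 lists of receptors, enzymes, transporters and signalling partners. Beside the 10 genes they hold 91 genes in the table, of which 76 were tested. By edgeR 0 of the 76 were called, by DESeq2 0 as well, an unadjusted p under 0.05 was reached by 4 higher and 2 lower genes, and their median log2 fold change was 0.06. In 7 of them all treated libraries lay above all controls and in 4 below. Over all genes tested, 8.03% had such a p, 6.94% lay above and 7.79% below, so these counts are near the background.

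Among proteins that couple P2Y12 to movement and desensitization, 12 of 17 tested genes had a positive log2 fold change (median 0.08). Gnai2, encoding an inhibitory G protein alpha subunit, was at 165 ± 29.5 CPM in controls and 216 ± 32.3 with anti-LILRB4 (log2 fold change 0.39, standard error 0.16, edgeR adjusted p 0.577). Arrb1, encoding beta-arrestin 1, was at 31.3 ± 7.33 and 43.0 ± 7.31 CPM, a log2 fold change of 0.46 (adjusted p 0.614). The groups overlapped in both, control library 1 being lowest and anti-LILRB4 library 2 highest. Kcnk13, the potassium channel THIK-1 that acts with P2Y12 in microglial surveillance, was at 128 ± 15.2 and 135 ± 19.7 CPM, and it is named outside the rule for its known role.

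Effectors of the ATP channels gave 7 positive and 4 negative fold changes among 11 tested (median 0.06). Ano6, a phospholipid scramblase that works with P2X7, was at 36.3 ± 9.04 CPM in controls and 51.7 ± 5.16 with anti-LILRB4, with every treated library above every control (log2 fold change 0.51, edgeR adjusted p 0.538). Nlrp3, the inflammasome sensor, was at 59.7 ± 3.97 and 47.7 ± 5.98 CPM, with every treated library below every control (log2 fold change -0.32, adjusted p 0.593). Neither passed the test.

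Of 11 tested genes for extracellular nucleotide and adenosine handling, 7 had a positive fold change (median 0.17). Entpd1 and Nt5e are among those 7, and the median is the value of Nt5e. Pnp2, a purine nucleoside phosphorylase whose reads cannot be cleanly split from its close copy Pnp, was at 10.3 ± 1.71 and 14.7 ± 1.96 CPM (log2 fold change 0.52, edgeR adjusted p 0.577). Ada, encoding adenosine deaminase, was at 2.81 ± 1.02 and 1.76 ± 0.186 CPM (-0.67, adjusted p 0.693). Intracellular NTPDases and nucleotidases had a median of -0.07 over 11 tested genes, with Nt5m, a mitochondrial nucleotidase, at 0.36 and the NTPDase gene Entpd7 at -0.20 (edgeR adjusted p 0.700 and 0.710).

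Release and transport genes had 8 positive and 6 negative fold changes (median 0.10). Panx2, a pannexin, was listed at 0.653 ± 0.243 CPM in controls and 0.142 ± 0.107 with anti-LILRB4, and Slc28a2, a concentrative nucleoside transporter, at 1.60 ± 1.04 and 0.746 ± 0.410 (edgeR adjusted p 0.538 and 0.693). Of the lysophosphatidylserine genes 7 were tested, Gpr34 itself among them (median -0.12). Abhd12, the main lysophosphatidylserine lipase of brain, was at 252 ± 7.29 and 280 ± 28.2 CPM and the phospholipase gene Pla1a at 0.942 ± 0.950 and 0.310 ± 0.332 (edgeR adjusted p 0.765 and 0.764). The list of nucleotide receptors also held P2ry10b by its symbol, although it is counted with the lysophosphatidylserine genes above. P2ry10b was at 64.4 ± 5.75 and 59.2 ± 7.64 CPM. From the same list P2ry2, the ATP and UTP receptor, was at 1.43 ± 0.748 and 0.937 ± 0.381 CPM. At the P2ry12 locus Igsf10 was at 3.41 ± 1.08 and 4.74 ± 1.81 CPM.

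The genes whose pattern across the 6 libraries was most like that of P2ry12, among 4313 other protein-coding genes with a mean log2 CPM of at least 5, were Elmod2 (Pearson's r of log2 CPM 0.99), AW549877 (0.99) and Rngtt (0.98). All 3 were lowest in anti-LILRB4 library 2, and without that library r was 0.97, 0.83 and 0.83. The 6 libraries share depth and scaling across genes, and these values only describe the pattern.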

How the data were processed

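The members, gene lists and alternatives were chosen with earlier results of these data known. The deposited counts are whole reads per Ensembl gene, not normalized; DESeq2 1.38.3, Salmon, featureCounts, Subread and STAR are listed, with no role, in the submitters' processing notes. The build and annotation behind the counts were not given in the sources used here. Per the labels' protocols, cDNA came from a low-input kit; it does not mark strand. A second deposited table holds, per the file headers, the authors' DESeq2 log2 fold change and standard error, a mean normalized signal per gene, a score (fold change over error) and each p-value before and after adjustment.

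The table has 55780 rows; 287 were exact repeats and were left out. The test was edgeR 4.0.16 (R 4.3.3): filterByExpr (minimum count 10), TMM, quasi-likelihood F test without covariate, Benjamini-Hochberg over 18210 genes, threshold 0.05. CPM uses TMM library sizes; log2 CPM has a prior count of 2. Standard errors are the fold change over the square root of F, and 95% intervals use the t quantile. DESeq2 1.42.0 and limma-voom (limma 3.58.1) were alternatives, with other scalings, filters, robust dispersion, protein-coding genes, a replicate block, and each library left out. On simulated data of this comparison (17470 genes) edgeR recovered 65% of genes changed by 1 and 96% of those changed by 2 (log2), with 8 false calls. The changed genes were drawn above a CPM floor that P2ry14 and Nt5e do not reach. Changes smaller than 1 (log2), such as those of the other members, were not simulated. No 2 libraries agreed within sampling noise.

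Lengths, positions and overlaps come from GENCODE M21 (GRCm38) by Ensembl identifier. The authors' table gave the same start for 499 of 24360 genes, so its coordinates are not used. Start windows and sequences are from RefSeq (GRCm38.p6).

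The genes named are the 10 members; per wider list the 2 other genes with the smallest unadjusted p, as none passed; host genes; and the 3 genes most like P2ry12. Gpr171 was described further, and Kcnk13 named, after values were seen. The counts of genes led by 1 library, the ratios to P2ry12, the levels without control library 3 and the overlap under other scalings were added after seeing the data. Figures were drawn with matplotlib 3.10.9.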

Additional observations from a re-analysis of the deposited data

How the results depend on the processing

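Of 160 recomputed fold changes of the 10 genes (16 alternatives each), 154 kept their direction and stayed above the threshold, 5 changed sign and 1 passed the threshold. The passing value was P2ry14 with no low-count filter, which made the number of the 10 genes called 1 there and 0 under every other alternative run, an adjusted p of 0.1 included. Over all genes, edgeR called 0, DESeq2 169 and edgeR with no low-count filter 300; limma-voom called 0. The sign changes came from leaving out 1 library: P2ry12 ranged from -0.12 to 0.0056, P2rx4 from -0.14 to 0.0031 and Nt5e from -0.16 to 0.84 in log2 fold change. P2ry14 ranged from -2.54 to -0.66 in the same fits and was -1.24 by limma-voom. Leaving out 1 library moved the P2ry6, P2rx7, Gpr34 and Entpd1 values by over 1.5 times without changing their sign. Without control library 1, values were 0.13 for Entpd1, -0.09 for Gpr34, -0.17 for Adora3, 0.14 for P2ry13, 0.09 for P2rx7 and 0.0031 for P2rx4. In that fit P2ry12 (-0.09), P2ry14 (-2.25) and Nt5e (0.84) moved away from 0, and P2ry6 stayed at -0.11. Control library 1 also had the highest mitochondrial share (4.69%) and the highest neutrophil marker sum (1338 CPM) of all libraries. The cause was not tested. Deviations of same-numbered libraries correlated at 0.01, 0.03 and -0.01. These values show no pairing by replicate number, but with 3 libraries per group they cannot exclude one. With a replicate block 0 of the 10 genes and 0 of all genes were called, and the P2ry14 and Nt5e log2 fold changes were -1.32 and 0.29. Other scalings moved the median of all genes by -0.03 to 0.01 (log2). Counting error at the lowest count is 25% for P2ry14, 16.2% for Nt5e and at most 1.33% for the 8 other genes; the coefficient of variation between control libraries is larger, at 109% for P2ry14 and 65.1% for Nt5e.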
